A study of Homo sapiens with 8 samples.

Results

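MAP kinase cascade kinases are the enzymes of a relay in which each tier phosphorylates the next. They were taken here as the genes whose probe sets carry exactly 1 annotated symbol of the MAP4K, MAP3K, MAP2K or MAPK series followed by a number. The rule found 37 of the 19775 genes named in the table, with 106 probe sets: 3 MAP4K, 18 MAP3K, 5 MAP2K and 11 MAPK genes. Each was represented by its probe set with the highest mean, and 33 were bright enough to be tested among 13102 genes, which meant a value over the median of its array on 2 or more arrays. MAPK14, MAP2K3, MAP2K7, MAP4K2 and MAP4K3 were not analysed here. The cells on all 8 arrays were ALL-SIL, a leukemia cell line of immature T cells. In the first experiment, cells carrying a TCRα/β-GFP vector were either placed for 48 h on OP9-DL1, mouse stromal cells that present a Notch ligand (TCR activation in the labels), or kept without co-culture. In the second, cells carried either a TLX1 hairpin or the pLKO.1-puro control hairpin vector, and both groups had been selected with puromycin. Each group had 2 arrays. TLX1 was targeted with 1 hairpin, and the first comparison does not separate stroma, ligand and receptor.

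In the textbook cascade, a MAP4K or a small GTPase switches on a MAP3K, the MAP3K phosphorylates a MAP2K, and the MAP2K phosphorylates both a threonine and a tyrosine in the activation loop of a MAPK. The ERK, JNK and p38 branches carry growth factor, stress and cytokine signals, and in T cells the receptor feeds all of them. Most of this control acts on the proteins, and an array measures only the transcripts.

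Across the 33 tested kinases, 31 passed the threshold in neither experiment. MAP3K20, a kinase of the ribotoxic stress response, was listed 4.22-fold lower after co-culture, and MAP2K2, which phosphorylates ERK, was listed 2.38-fold higher with the TLX1 hairpin. Both values rest on rows of the table that differ from the rest. Of 54675 probe sets, 172 carried 5 decimals in place of 8 or 9, and these included all 7 probe sets of MAP3K20 and all 3 of MAP2K2, but no probe set of another kinase described here. After subtraction of each row's mean, the 7 rows of MAP3K20 differed from each other by at most 7.5e-06 (log2) on any array, and the 3 rows of MAP2K2 by at most 7.5e-06. The rows of each gene thus carry 1 set of differences between arrays and count as 1 measurement. In all, 47 genes had 2 or more such rows, and in 47 of them the rows were equal in this way to within 1e-05. Of 10475 genes with 2 or more rows of more decimals, 0 were, and their smallest such difference was 0.039. Among 29 kinases of the cascade with several rows of more decimals, it ranged from 0.20 for MAPK7 to 1.80 for MAP3K2. How these rows were made is not given in the sources used here, and whether it accounts for the values of MAP3K20 and MAP2K2 was not tested. Their agreement between probe sets is therefore no check of these results.

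**Figure D1:**
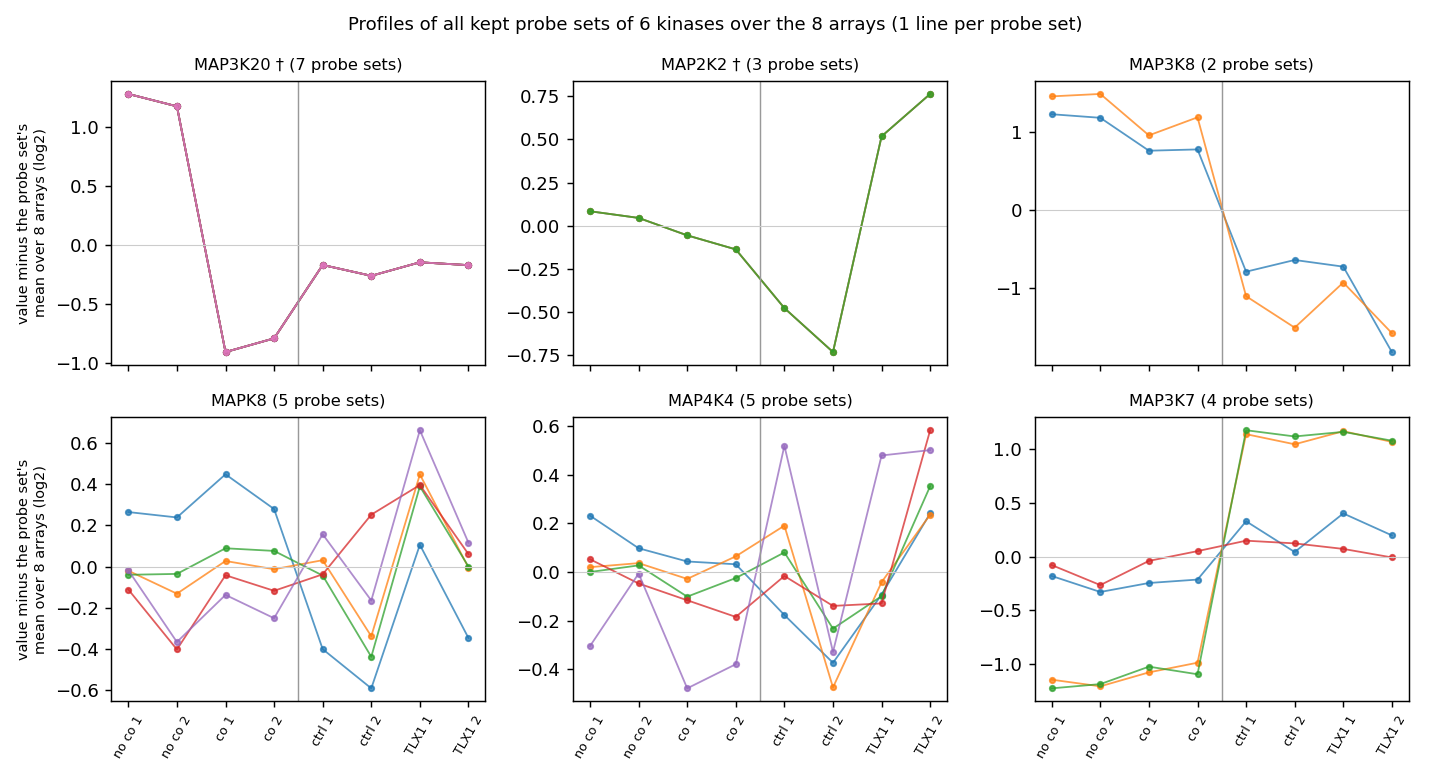
Each line is 1 kept probe set, shown as its log2 value minus its mean over the 8 arrays, for 6 kinases; the grey line parts the co-culture experiment (left) from the hairpin experiment (right), and a dagger marks rows of 5 decimals. The 7 lines of MAP3K20 and the 3 of MAP2K2 lie on top of each other, while the lines of MAP3K8, MAPK8, MAP4K4 and MAP3K7 spread.

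These rows were also called more often than the rest of the table. They represent 72 of the 13102 genes tested, or 0.550%. Of the 72, 12 passed in the co-culture comparison (16.7%, against 0.530% of the others) and 3 in the hairpin comparison (4.17%, against 0.0691%). With all 172 probe sets left out, 65 genes passed after co-culture and 3 with the hairpin. The other 31 cascade kinases passed in neither fit, with or without these rows. As for the cells themselves, the mean of 12 T lineage markers lay between 9.28 and 9.77 in all arrays, and 0 of the 12 were below the array median throughout. Single markers differed more: with the TLX1 hairpin the 12 ranged from -0.98 to 0.61, and 0 passed by limma. Their unadjusted p was under 0.05 for 6, of which 2 were higher and 4 lower. The 4 lower ones were CD2, CD1A, CD1B and CD1E, which have rows of 5 decimals. The mean of 14 granulocyte and myeloid markers moved with co-culture, from 5.13 and 5.15 to 6.41 and 6.43. Of its 10 tested members, 7 were higher at a limma adjusted p under 0.05, against 0.366% of all genes. MPO, whose rows have 5 decimals, had a change of -0.72 with groups that did not overlap. Of that list, ELANE, AZU1, LYZ and CD14 stayed below the array median on all arrays. Its part in the values below was not tested. The mean of 12 stromal markers was 6.09 and 6.41 without co-culture, and its values with co-culture overlapped these. TLX1 read 8.66 and 8.27 with the control hairpin and 7.98 and 7.88 with the TLX1 hairpin, a change of -0.53 that did not pass (limma adjusted p = 0.334).

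The first question was which tiers changed when the cells were placed on the stroma. Of the 33 tested kinases, 1 passed at an adjusted p under 0.05 and it was lower, against 0.618% of all genes (0.366% higher and 0.252% lower). The same gene was the only one with an unadjusted p under 0.05, against 7.42% of all genes (3.98% higher and 3.43% lower). By sign 16 were higher and 17 lower, while 55% of all genes were higher. The median log2 change was -0.01, and that of all genes tested was 0.02. The groups did not overlap for 22 of the 33, 9 of them higher and 13 lower, while 57.5% of all genes showed no overlap (32% higher and 25.4% lower). Since 2 arrays a group separate so easily in this experiment, lack of overlap alone says little. The SE of the fit also takes in the spread of the hairpin arrays. Fitted on the 4 arrays of this experiment alone, 2 of the 33 passed, against 6.61% of all genes. There, limma's unadjusted p was also under 0.05 for MAP3K2, MAP3K4, MAP2K2 and MAP2K5, all lower, and for MAPK3 and MAPK12, both higher. None of these passed (adjusted p = 0.0867 to 0.176), and the share of all genes at that level was not computed. The second question was the same for the TLX1 hairpin. There 1 of 33 passed and was higher, against 0.0916% of all genes (0.0611% higher and 0.0305% lower). Of the 33, 3 had an unadjusted p under 0.05 and all of them were higher, against 8.98% of all genes (4.21% higher and 4.77% lower). By sign 17 were higher and 16 lower, while 49.6% of all genes were higher. The median log2 change was 0.00. The groups did not overlap for 7 that were higher and 2 that were lower, against 28.7% of all genes (14.1% higher and 14.6% lower).

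**Figure D2:**
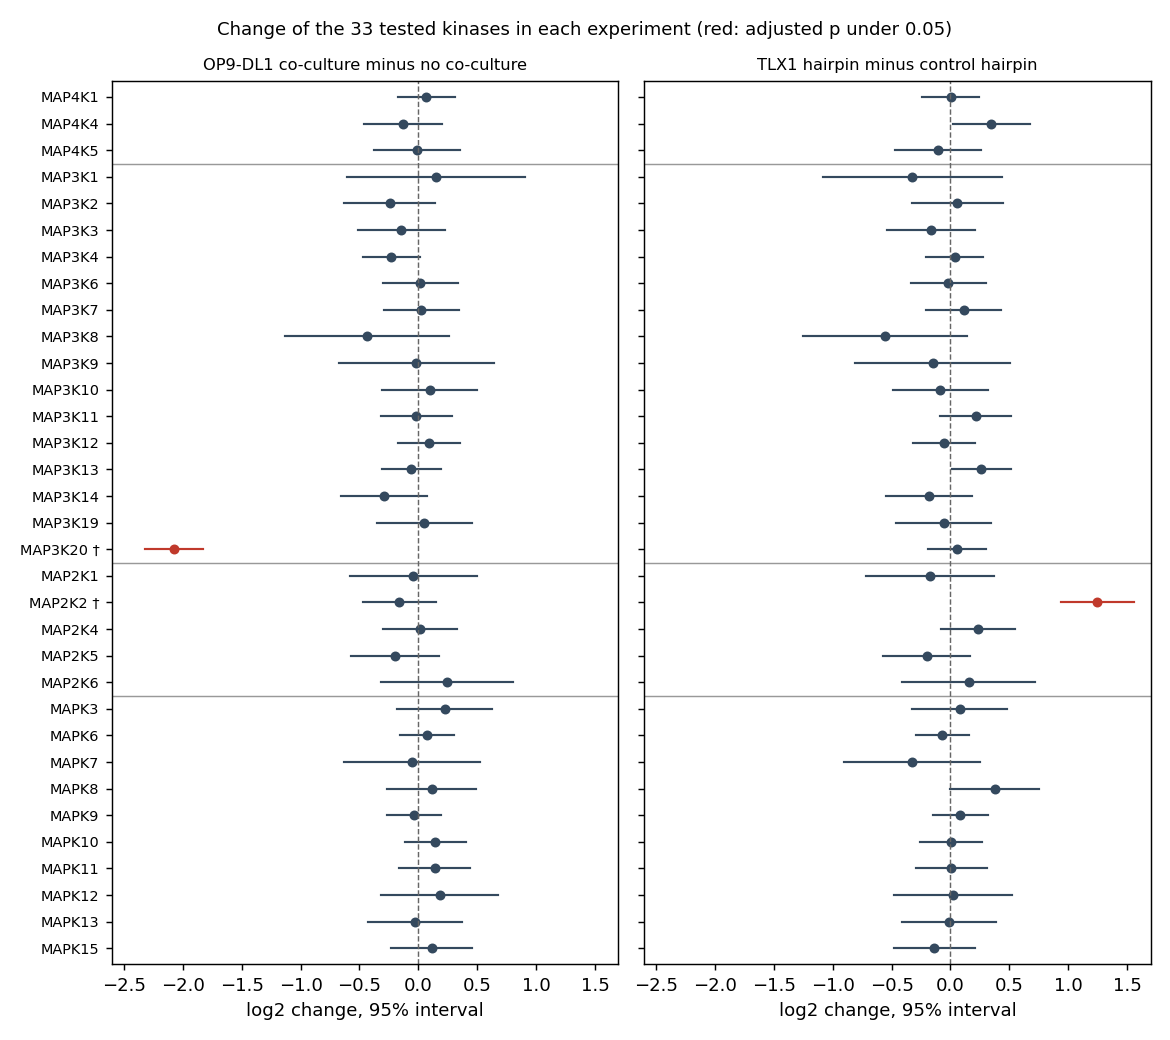
Points are log2 changes of the 33 tested kinases with 95% intervals from the limma fit of all 8 arrays, ordered by tier from MAP4K to MAPK; red marks an adjusted p under 0.05 and a dagger the rows of 5 decimals. In each panel 1 of the 33 is red, MAP3K20 at -2.08 on the left and MAP2K2 at 1.25 on the right.

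The MAP4K tier stands nearest the receptor. MAP4K1, a blood cell kinase that dampens T-cell receptor signalling, read 8.06 and 8.09 without co-culture and 8.13 and 8.15 with it. In the hairpin arrays it read 7.46 and 7.59 with the control and 7.48 and 7.57 with the TLX1 hairpin. Its change was 0.07 in the first comparison (95% interval -0.18 to 0.31) and 0.00 in the second (-0.24 to 0.25), so neither interval reaches a change of 0.5. MAP4K4, an activator of the JNK branch, read 9.03 and 8.83 with the control hairpin and 9.11 and 9.45 with the TLX1 hairpin. All TLX1 hairpin arrays were above the controls, but the nearest of them lay only just above. The difference was 0.35 (SE 0.14), and adjusted over all genes it did not pass (limma adjusted p = 0.537). All 5 of its probe sets were higher there, by 0.20 to 0.39. After co-culture it stood at 9.25 and 9.24, against 9.44 and 9.30 without. All 5 probe sets were lower, by 0.01 to 0.27, and the change of -0.13 did not pass (adjusted p = 0.970). MAP4K5 differed by -0.01 and -0.10, with overlapping groups in both experiments.

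In the MAP3K tier, 15 of 18 genes were tested. MAP3K20 was listed at 9.23 and 9.12 without co-culture and at 7.04 and 7.16 with it. The hairpin arrays lay between these groups, at 7.78 and 7.69 with the control and 7.80 and 7.78 with the TLX1 hairpin. Its change after co-culture was -2.08 (SE 0.11, 95% interval -2.33 to -1.83, limma adjusted p = 1.67e-04), and with the TLX1 hairpin it was 0.06 (adjusted p = 0.929). The call held whichever of the 8 arrays was left out, with an adjusted p of at most 0.00566, and rests on the rows of 5 decimals described above. Without MAP3K20, the changes of the tier after co-culture ran from -0.44 for MAP3K8 to 0.15 for MAP3K1.

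MAP3K8, which activates the ERK branch downstream of inflammatory receptors, had the largest of these differences. It read 8.97 and 8.93 without co-culture and 8.51 and 8.52 with it. The groups lay well apart and each was tight. In the fit of all 8 arrays the change of -0.44 had an SE of 0.30 and did not pass (95% interval -1.13 to 0.26, adjusted p = 0.907). Fitted on the 4 arrays of this experiment alone, its SE was 0.06 and it passed (adjusted p = 0.0241), where 6.61% of all genes and 2 of the 33 kinases, MAP3K20 and MAP3K8, did. The hairpin arrays, which enter the SE of the larger fit, read 6.96 and 7.11 with the control and 7.02 and 5.93 with the TLX1 hairpin. The last of these stood well below the rest. Its second probe set differed by -0.40 after co-culture, close to the first. In the hairpin comparison the 2 probe sets disagreed, at -0.56 and 0.05.

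MAP3K14, the kinase of non-canonical NF-kB signalling, read 6.59 and 7.02 without co-culture and 6.51 and 6.52 with it (change -0.29, adjusted p = 0.813). The second array without co-culture stood above the other 3. MAP3K2, MAP3K3 and MAP3K4, which feed the ERK5, JNK and p38 branches, differed by -0.24, -0.15 and -0.23 after co-culture. All arrays after co-culture were below those without it for each of these genes, and 0 of the 3 passed (adjusted p = 0.702 to 0.966). MAP3K4 had the smallest unadjusted p of them, 0.0597, and its second probe set differed by -0.11. With the TLX1 hairpin, all 3 probe sets of MAP3K3 were lower, by 0.14 to 0.45. The tested one differed by -0.16 with overlapping groups (adjusted p = 0.813). With each probe set as a feature in limma, the one at -0.45 had an unadjusted p of 0.00565 (adjusted p = 0.340). MAP3K7, better known as TAK1, links antigen and cytokine receptors to NF-kB and to the stress kinases. It read 9.40 and 9.25 without co-culture and 9.33 and 9.36 with it. The interval of -0.29 to 0.34, which measures the spread between arrays, does not reach a change of 0.5. All 4 probe sets of MAP3K7 were slightly higher, by 0.03 to 0.18. MAP3K1, an activator of JNK, had wide intervals in the fit of all 8 arrays, -0.61 to 0.91 after co-culture and -1.08 to 0.43 with the TLX1 hairpin. Its hairpin arrays, which enter both, ranged from 7.37 to 8.51. Fitted on the 4 arrays of the co-culture experiment alone, its change of 0.15 had an interval of -0.06 to 0.36.

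MAP3K13, which activates JNK, read 4.93 and 5.12 with the control hairpin and 5.31 and 5.27 with the TLX1 hairpin. The groups did not overlap, but 3 of these 4 values lie below the array median, so the size is not exact. The difference of 0.26 (SE 0.11) did not pass over all genes (limma adjusted p = 0.540). MAP3K13 was tested because its arrays in the other experiment read higher, between 5.54 and 5.64. Its other 6 probe sets stayed below the array median on all arrays, and 2 of them differed by 0.94 and 0.98 after co-culture while the tested one differed by -0.06. MAP3K11, MAP3K12, MAP3K9 and MAP3K10 differed by -0.02 to 0.10 after co-culture and by -0.15 to 0.22 with the TLX1 hairpin. The representative probe sets of MAP3K6 and MAP3K19 differed by at most 0.06 in size in either comparison. That of MAP3K6 was below the array median on all 4 hairpin arrays, and another of its probe sets, above the median on 1 array only, differed by -0.23 after co-culture and by -0.70 with the TLX1 hairpin.

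The other 3 genes of the tier were too dim to test. MAP3K5, better known as ASK1, is a sensor of oxidative stress and read 3.89 to 4.72 over all arrays. MAP3K15 read 3.73 to 4.25 and MAP3K21 2.92 to 4.38. MAP3K21 stood at 3.52 and 3.42 without co-culture and at 3.96 and 4.38 with it, and MAP3K5 at 4.29 and 4.28 and at 4.72 and 4.70. All these values are below the array median, near 5.30. In the fit without the dim filter, which tested all 37 kinases, MAP3K20 was again the only one called after co-culture and MAP2K2 the only one with the TLX1 hairpin.

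In the MAP2K tier all 5 genes were tested. MAP2K2 was listed at 7.86 and 7.61 with the control hairpin and at 8.86 and 9.11 with the TLX1 hairpin, and at 8.43, 8.39, 8.29 and 8.21 in the co-culture experiment. The TLX1 hairpin arrays were the highest of the 8 and the control hairpin arrays the lowest. The change was 1.25 (SE 0.13, 95% interval 0.94 to 1.56, limma adjusted p = 0.0326). The call ended with any of 6 arrays left out, the highest adjusted p being 0.186, with either array of the cells kept without co-culture left out. It held without either control hairpin array. It also ended when only the 2 hairpin groups were fitted (adjusted p = 0.9998), with array weights (0.223) and with the replicate number as a block (0.0724), and it rests on rows of 5 decimals. After co-culture MAP2K2 differed by -0.16 (adjusted p = 0.940). Its close relative MAP2K1, which phosphorylates the same ERK kinases, read 9.79 and 10.61 with the control hairpin and 10.06 and 9.99 with the TLX1 hairpin. The 2 control arrays lay on either side of the others, and the difference of -0.17 had an interval of -0.71 to 0.37. Without the first control hairpin array, 5 kinases passed: MAP2K2 and MAP2K6 higher and MAP2K1, MAP3K9 and MAPK7 lower. That fit called 1796 genes in all, against 12 with all arrays, and leaves 1 control array that is assumed to vary like the other groups.

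MAP2K4, which phosphorylates JNK and p38, read 8.47 and 8.18 with the control and 8.67 and 8.45 with the TLX1 hairpin (0.24, adjusted p = 0.670). Its second probe set went the other way there, by -0.05. MAP2K6, a p38 activator, read 6.80 and 6.56 without co-culture and 6.97 and 6.89 with it (0.25, adjusted p = 0.960). MAP2K5, the activator of MAPK7, differed by -0.20 in both comparisons, with adjusted p values of 0.935 and 0.765. All 4 of its kept probe sets were lower in each, by 0.11 to 0.23 after co-culture and by 0.02 to 0.23 with the TLX1 hairpin.

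The MAPK tier closes the cascade. In the main fit, with 1 probe set per gene, 0 of its 10 tested genes passed in either comparison by limma. There, none had an unadjusted p under 0.05. With each probe set as a feature in limma, other probe sets of MAPK8 and MAPK12 were at that level with the TLX1 hairpin, as was that of MAP3K3 given above. That of MAPK8 differed by 0.44 (unadjusted p = 0.0365, adjusted p = 0.537). That of MAPK12 differed by -0.46 (unadjusted p = 0.00460, adjusted p = 0.325). After co-culture 7 of the 10 were higher by sign, with a median of 0.11 and a range of -0.05 to 0.22. MAPK3, better known as ERK1, read 7.78 and 7.92 without co-culture and 8.06 and 8.09 with it. The groups did not overlap and the difference of 0.22 did not pass (95% interval -0.18 to 0.63, adjusted p = 0.928). Fitted by limma on the 4 arrays of the co-culture experiment alone, its interval was 0.04 to 0.41. There too it did not pass (adjusted p = 0.127). MAPK3 has 1 probe set. MAPK6, an atypical kinase of this family, read 10.59 and 10.61 without co-culture and 10.65 and 10.69 with it, and its interval was -0.15 to 0.30. MAPK7, better known as ERK5, read 6.27 and 7.11 with the control hairpin and 6.21 and 6.51 with the TLX1 hairpin. The first control array was as low as the TLX1 hairpin arrays, and the difference of -0.33 did not pass (adjusted p = 0.751).

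Of the JNK genes, MAPK8 had the largest difference of the tier with the TLX1 hairpin. It read 10.34 and 10.15 with the control and 10.85 and 10.40 with the TLX1 hairpin, a difference of 0.38 (SE 0.16, 95% interval -0.01 to 0.76, unadjusted p = 0.0530, adjusted p = 0.563). The first TLX1 hairpin array stood apart from the second by more than the second did from the controls. All 5 of its probe sets were higher, by 0.12 to 0.44, as were all 3 of MAPK9, by 0.07 to 0.20. MAPK9 itself read 8.51 and 8.57 with the control and 8.67 and 8.58 with the TLX1 hairpin, and 9.19 to 9.23 in the 4 arrays of the co-culture experiment. MAPK10, the neuronal JNK gene, read between 5.67 and 6.17 in all arrays. Of the p38 genes, MAPK11 differed by 0.14 and 0.01, MAPK12 by 0.18 and 0.02, and MAPK13 by -0.03 and -0.01. MAPK12 had a second probe set that differed by -0.46 with the TLX1 hairpin against 0.02 for the first, but all 4 of its hairpin arrays read 3.95 to 4.53, below the array median. MAPK15 differed by 0.11 and -0.14, and MAPK4 was too dim to test, at 4.58 to 5.05.

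**Figure D3:**
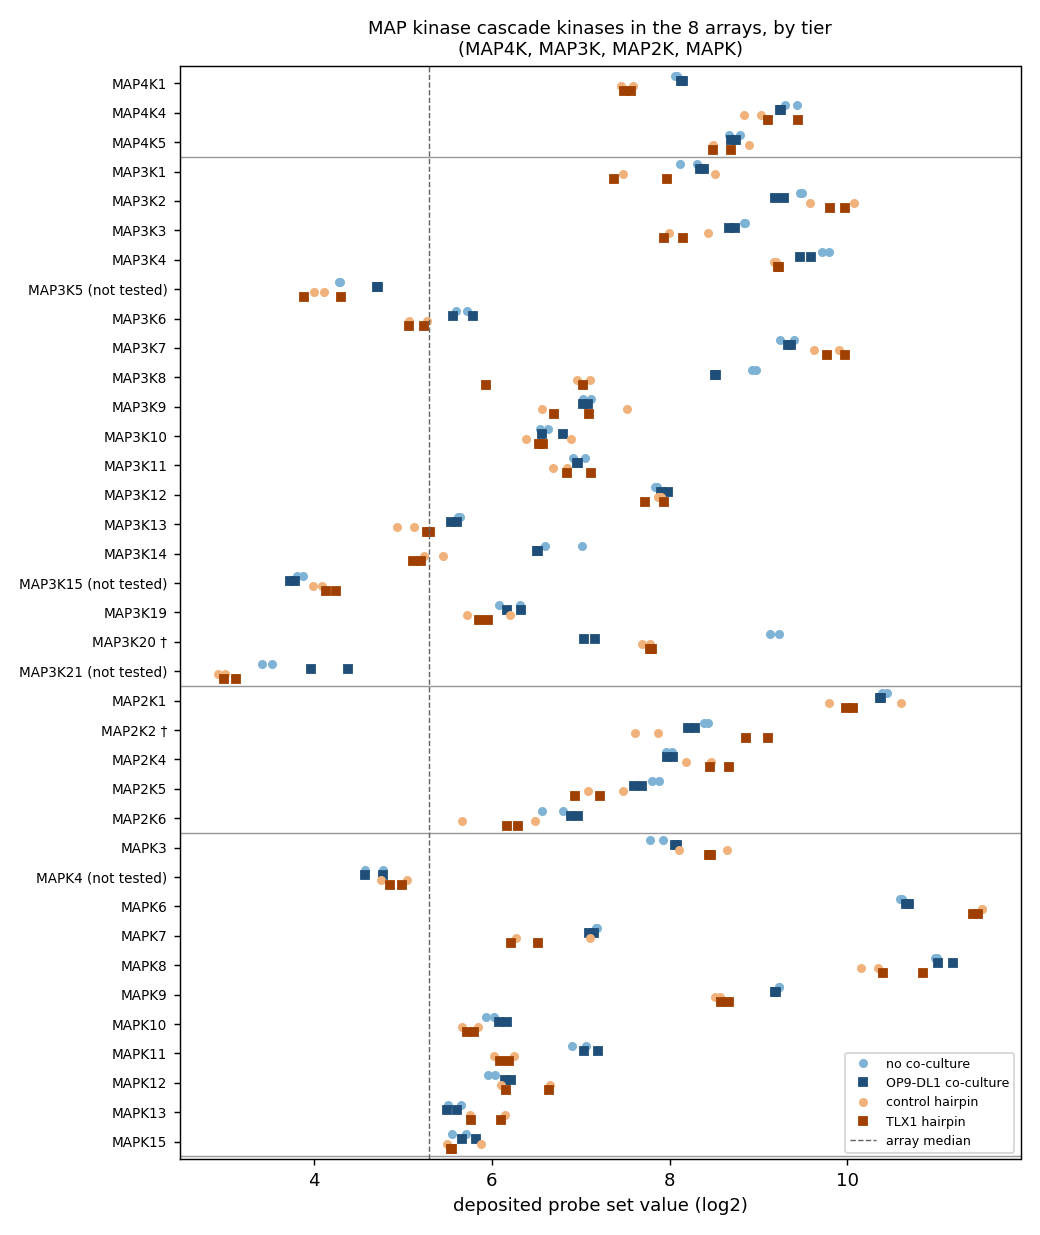
Every point is 1 array's deposited log2 value of a kinase's representative probe set; circles are controls and squares the treated cells, blue is the co-culture experiment and orange the hairpin experiment, and the dashed line is the array median. The groups of most kinases lie close together within an experiment, MAP3K8 and MAP3K14 sit higher in blue than in orange, and MAPK6 sits lower.

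The probe sets of a gene gave a second look at the small differences. Leaving out the rows of 5 decimals, 18 kinases had 2 or more probe sets above the filter. In 9 of the 18 all probe sets had the same sign after co-culture, which is 50.0%, against 58.8% of 6326 genes. With the TLX1 hairpin it was 11 of 18, or 61.1%, against 55.6%. The kinases were thus close to the other genes in this measure.

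The difference between the 2 responses was also tested. MAP3K20 (-2.13, limma adjusted p = 0.00140) and MAP2K2 (-1.41, adjusted p = 0.0294) passed, against 0.382% of all genes (0.229% higher and 0.153% lower). The call of MAP2K2 ended with the stricter dim filter (adjusted p = 0.0551), with the replicate block (0.0865) and with any of 6 arrays left out (up to 0.242), all but the control hairpin arrays. That of MAP3K20 held in each of these fits. The first moved in the co-culture experiment and the second in the hairpin experiment. At an unadjusted p under 0.05 there were 3 of 33, all lower, against 8.74% of all genes (4.65% higher and 4.09% lower). The added one was MAP4K4, with a difference of -0.48 that did not pass (limma adjusted p = 0.568).

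Levels were also set side by side between the 2 experiments, where the vectors and everything else that parts the experiments cannot be told apart. For 19 of the 33 kinases the 4 arrays of one experiment did not overlap those of the other, 13 higher and 6 lower in the co-culture experiment, against 54.7% of all genes. MAP3K8 stood at 8.73 ± 0.25 in the co-culture experiment and 6.75 ± 0.55 in the hairpin experiment (SD, n = 4 arrays each), and MAP3K14 at 6.66 ± 0.24 and 5.25 ± 0.14. MAPK11 stood at 7.05 ± 0.12 and 6.14 ± 0.10. In the other direction, MAPK6 stood at 10.64 ± 0.05 and 11.48 ± 0.05. Each SD takes in both groups of an experiment and so includes the difference between them. These values are given as a description.

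The pathway around the kinases was read from 6 further lists. Of the 22 tested GTPases, exchange factors and adaptors, 0 passed in either comparison by limma, and at an unadjusted p under 0.05 it was 2 after co-culture, both lower, and 4 with the TLX1 hairpin, 3 of them higher, against 7.42% and 8.98% of all genes. The stress adaptor GADD45A, which binds and activates MAP3K4, read 10.80 and 11.04 without co-culture and 10.26 and 10.13 with it (change -0.73, adjusted p = 0.138). GADD45B read 8.11 and 9.18 and then 7.46 and 7.68 (-1.07, adjusted p = 0.620), so the second array without co-culture was the highest. RAC1, a GTPase upstream of the stress kinases, read 11.22 and 11.16 with the control hairpin and 10.42 and 10.55 with the TLX1 hairpin (-0.71, adjusted p = 0.106). Its groups lay well apart. RRAS, a small GTPase related to RAS, had the smallest p there and is one of the genes with rows of 5 decimals. It was listed at 7.94 and 7.94 with the control and 8.61 and 8.83 with the TLX1 hairpin (0.78, adjusted p = 0.106).

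Among 6 tested relatives of the MAP3K tier, 11 scaffolds and 10 downstream kinases, 0 passed in either comparison by limma. At an unadjusted p under 0.05, these lists held 0 genes after co-culture. The share of all genes at that level was 7.42% there and 8.98% with the TLX1 hairpin. With the TLX1 hairpin, the scaffold CNKSR2 (0.43) and the ERK-activated kinase RPS6KA3 (0.45) were higher and the scaffold LAMTOR3 (-0.49) was lower at that level, with adjusted p values of 0.381, 0.463 and 0.433. After co-culture the genes with the smallest p in these lists were TAOK3 (-0.11), CNKSR2 (0.28) and RPS6KA5 (-0.22), with adjusted p values of 0.958, 0.715 and 0.763. Of the MAP3K relatives, NLK had the smallest p with the TLX1 hairpin (0.28, adjusted p = 0.690).

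Of 20 tested transcription factors that MAP kinases phosphorylate or induce, 0 passed in either comparison by limma. At an unadjusted p under 0.05 it was 2 after co-culture, ETV5 and FOS, and 0 with the TLX1 hairpin, against 7.42% and 8.98% of all genes. ETV5, an ERK-induced factor, read 5.08 and 5.02 without co-culture and 5.76 and 5.62 with it (0.65, adjusted p = 0.0585), and the first values are below the array median. FOS, the immediate early partner of JUN, read 5.88 and 7.86 without co-culture and 5.31 and 5.36 with it (-1.54, adjusted p = 0.525), so 1 of the 4 arrays stood far above the others. With the TLX1 hairpin, CREB1 had the smallest p (0.21, adjusted p = 0.589). Of 13 tested MAP kinase phosphatases, which switch the last tier off, 0 passed by limma. At an unadjusted p under 0.05 it was 3 after co-culture, DUSP2, DUSP9 and DUSP10, all lower, and DUSP9 alone with the TLX1 hairpin, where it was higher. Of all genes, 7.42% and 8.98% were at that level. DUSP9, a phosphatase of ERK, read 6.11 and 6.08 without co-culture and 5.81 and 5.64 with it (-0.37, adjusted p = 0.601). In the hairpin arrays it read 5.83 and 5.56 with the control and 6.62 and 6.38 with the TLX1 hairpin (0.81, adjusted p = 0.133). DUSP10, a phosphatase of the stress kinases, read 6.62 and 7.77 without co-culture and 6.30 and 6.43 with it (-0.83, adjusted p = 0.623), and here too the second array without co-culture was the highest.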

How the data were processed

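The deposited values are log2 probe set values of 8 arrays, for which the submitters' processing notes name RMA, affy and R 2.9.0; background and summary settings are not given in the sources used here. Array medians lay between 5.29 and 5.30, and all arrays spanned 2.15 to 14.3. Of 54675 probe sets, 41097 had 1 symbol in the platform annotation, 1801 several and 11777 none; 41043 matched the reference table by gene identifier and 0 symbols changed. A probe set was kept when above the array median in at least 2 arrays (30816), and the highest mean represented a gene. The fit was limma 3.58.1 in R 4.3.3 with 4 group means, lmFit and eBayes (4 residual and 3.62 prior degrees of freedom). Benjamini-Hochberg adjustment ran over 13102 genes, with a threshold of 0.05. Adjusted p values and intervals (95%) are from this fit unless another is named. The fit was also run on simulated independent values with the same spread for all genes of a group. Those values lack a spread that differs between genes and arrays that deviate together, so that run is no check of the calls. Nothing in the labels says that the 2 arrays of a group came from separate cultures, so p-values measure the spread between arrays, which may be technical, and the number of arrays limits the precision. That spread was larger in the hairpin arrays: the median SD of genes was 0.17 and 0.11, against 0.06 and 0.04.

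Any cascade kinase could be named; those with an unadjusted p under 0.05 and the largest rise and fall of a tier were given by array. Of the other pathway lists, calls and the smallest p of each comparison were named. The kinases and lists were chosen with earlier results of these data known. The rows of 5 decimals were noticed afterwards, and genes with them were kept as deposited in the main fit. Same-numbered arrays deviated together at r = 0.35 in the hairpin experiment and at -0.14 in the co-culture experiment (across 13102 genes, which are not independent replicates).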

Additional observations from a re-analysis of the deposited data

Results flagged for a closer look

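The response to co-culture and the response to the TLX1 hairpin differed by the test of the difference itself for MAP3K20, at -2.13 on the log2 scale (limma adjusted p = 0.00140), and for MAP2K2, at -1.41 (adjusted p = 0.0294). For MAP2K2 the adjusted p was 0.0551 with the stricter dim filter, 0.0865 with the replicate block and up to 0.242 with an array left out, and 2 of 8 left-out arrays kept the call. All probe sets of both genes belong to the 172 rows of 5 decimals, and 18.0% of the 50 genes with such a difference were represented by one of these rows, which stand for 0.550% of the genes tested.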

How the results depend on the processing

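With all arrays, 1 kinase passed after co-culture, 1 with the TLX1 hairpin and 2 in the difference. Leaving out the rows of 5 decimals, chosen after seeing the data, gave 0, 0 and 0, which follows from the removal since it takes out both called kinases. Fitting only the 2 groups gave 2 after co-culture and 0 with the hairpin (866 and 0 genes in all, against 81 and 12), and array weights gave 0 with the hairpin (1350 and 1 genes in all). The stricter dim filter gave 1 in the difference, without MAP2K2 (20 and 17 genes in all after co-culture and in the difference, against 81 and 50). Left-out arrays gave 1 each time after co-culture, 0 to 5 with the hairpin and 1 to 2 in the difference (29 to 217, 0 to 1796 and 14 to 908 genes in all). The labels give replicate numbers but no shared source, so they do not settle a pairing: the replicate block gave 1 after co-culture, 0 with the hairpin and 1 in the difference, and so did crossed pairs, added after seeing the data (71 and 9 genes in all). No dim filter, the mean of probe sets, each probe set as a feature, eBayes trend and cyclic loess left the 3 counts as they were, though probe sets as features called 146, 23 and 92 in all. The dim filters, 2-group fits, array weights, eBayes trend and replicate blocks leave the change of a representative probe set as it is. Its sign under them is therefore no check. With cyclic loess or an array left out, MAP3K20 after co-culture kept its sign. So did MAP2K2, MAP4K4 and MAP3K13 with the hairpin. Values below the array median limit what can be said of the dim kinases.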
